A study of Oryctolagus cuniculus with 9 samples.

Results

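The respiratory chain of the inner mitochondrial membrane passes electrons from NADH and succinate to oxygen and uses the energy to pump protons, and ATP synthase turns the proton gradient into ATP. Complex I oxidizes NADH, complex II oxidizes succinate as part of the TCA cycle, complex III hands electrons to cytochrome c, complex IV reduces oxygen and complex V is the ATP synthase. Most subunits are encoded in the nucleus and imported, and the diaphragm, a muscle that works with every breath, is rich in them.

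The genes were chosen by name. A row of the expression table was taken where its symbol starts with NDUFA, NDUFB, NDUFC, NDUFS, NDUFV, SDHA, SDHB, SDHC, SDHD, UQCR, COX4, COX5, COX6, COX7, COX8 or ATP5 and its mean FPKM (a fragment count divided by transcript length and by library size) over the libraries was at least 0.5. This gave 67 of 29076 rows, and all 67 rows with such a name passed the level filter and had counts in every library. Of these, 53 encode subunits: 31 of complex I, 4 of complex II, 1 of complex III (UQCRQ), 3 of complex IV (COX4I1, COX6A1, NDUFA4) and 14 of complex V. The row named NDUFA13 is counted here by its name, although its description is of another protein. A further 12 encode assembly factors, and NDUFA4L2 is a paralog of NDUFA4. ATP5S carries an ATP synthase name without being counted here as a subunit. A further 23 rows of the chain carry such a symbol only in the RefSeq gene table, among them most of complexes III and IV, and were kept apart as a comparison set.

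Diaphragm RNA was measured in 9 libraries of New Zealand white rabbits, 3 per group. The MV_PEEP group was mechanically ventilated with PEEP (positive end-expiratory pressure, the pressure left in the airway when a breath ends), labelled 8 with no unit and no duration. Ventilation in the MV group lasted 48 h at a PEEP of 0 cmH2O. Its mode was volume-controlled assist-control, in which the paper reports that spontaneous breathing was preserved. The CON group was anaesthetized and breathed on its own. The paper gives pentobarbital anaesthesia and dexmedetomidine sedation for its animals in general, and does not describe the MV_PEEP group. The labels call the libraries replicates without saying that each is another rabbit, so a p-value speaks only of how far these libraries spread.

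Total counts ranged from 21646702 to 43697018 per library. Markers of skeletal muscle were plain in all libraries (16 of 20 listed markers were in the table, none at 0), with a summed FPKM from 28905 to 62868 in MV_PEEP, 46193 to 59047 in MV and 85011 to 90664 in CON. MV_PEEP replicate 3 stood apart. Its 7 adipocyte markers summed to 8829 FPKM, against 506 to 950 in the other libraries, its 12 fibroblast markers to 4651 against 163 to 1746, its 5 mesothelial markers to 96.7 against 0.252 to 2.84 and its 8 macrophage markers to 193 against 10.5 to 42.6 (ADGRE1 at 0 in every library). Its muscle markers were the lowest of the 9. Neutrophil markers (8, with MMP8 at 0 in every library) summed to 152 to 286 FPKM in MV_PEEP and 30.5 to 1067 in MV, against 2.96 to 19.1 in CON. The part of these cells in the results below was not tested. In bulk tissue, fewer muscle fibres and less RNA per fibre cannot be told apart.

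Transcripts of the chain were abundant. The mean FPKM of a subunit over the 9 libraries ran from 1.40 to 3446, with a median of 469. At the low end was the row named NDUFA13, of uncertain identity, and at the high end COX4I1. Together the 67 genes summed to 42534, 28223 and 19072 FPKM in MV_PEEP replicates 1, 2 and 3, to 48399, 35036 and 37407 in MV replicates 1, 2 and 3, and to 56364, 32740 and 45251 in CON replicates 1, 2 and 3. They took 3.53%, 2.28% and 1.60% of all counts in MV_PEEP, 3.62%, 2.89% and 2.98% in MV, and 4.47%, 2.75% and 3.34% in CON. MV_PEEP replicate 3 was lowest and CON replicate 1 highest, and the ranges of all 3 groups overlapped.

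The subunits varied together between libraries. On the log2 scale of TMM-scaled CPM (each count as a share of its library, corrected for composition), with each gene set relative to its own mean over the 9 libraries, the correlation of a subunit with the mean of the other subunits had a median r of 0.93 over the 9 libraries, and 42 of 53 exceeded 0.8. The points share libraries and depth, so this is a description. The lowest correlations were -0.23 for COX6A1 and 0.11 for SDHD. Of 53 subunits, 47 had their lowest value in MV_PEEP replicate 3 and 44 had their highest in CON replicate 1. The median subunit stood at 0.30, -0.51 and -1.39 in MV_PEEP, at 0.20, -0.03 and 0.37 in MV, and at 0.96, -0.21 and 0.50 in CON. The range within MV_PEEP and within CON was wider than the distance between any 2 group means (-0.54 in MV_PEEP, 0.18 in MV and 0.42 in CON).

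**Figure D1:**
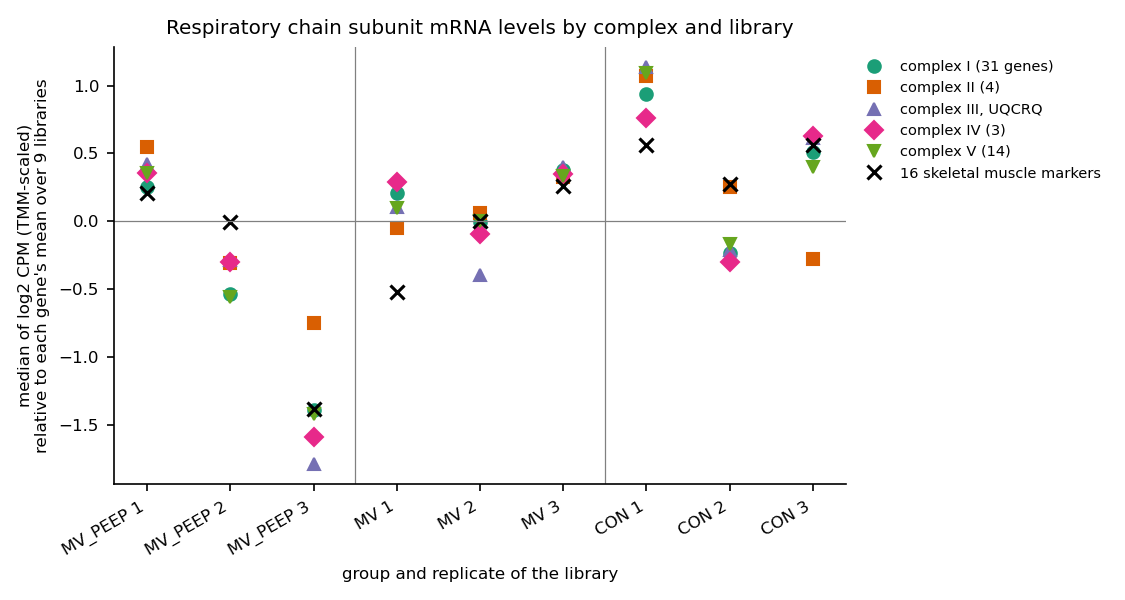
Each point is the median, over the subunits of 1 complex, of log2 TMM-scaled CPM relative to each gene's mean over 9 libraries (y axis), for each library (x axis, MV_PEEP, MV and CON); crosses are the median of 16 skeletal muscle markers. Complexes I to V lie close together in most libraries, lowest in MV_PEEP replicate 3 and highest in CON replicate 1.

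The complexes followed the same pattern. Complex I had a median level of 0.25, -0.54 and -1.39 in MV_PEEP, 0.21, -0.00 and 0.38 in MV, and 0.94, -0.23 and 0.51 in CON. Complex V, which holds ATP synthase, stood at 0.35, -0.56 and -1.42 in MV_PEEP, 0.10, -0.00 and 0.33 in MV, and 1.10, -0.17 and 0.40 in CON. Complex II departed most from the others in 2 libraries: it was at -0.75 in MV_PEEP replicate 3 and at -0.28 in CON replicate 3, where complex V stood at -1.42 and 0.40. The skeletal muscle markers, on the same scale, were at 0.20, -0.01 and -1.39 in MV_PEEP, -0.52, 0.00 and 0.26 in MV, and 0.56, 0.27 and 0.57 in CON. The median subunit minus the median muscle marker was 0.09, -0.51 and -0.01 in MV_PEEP, 0.72, -0.03 and 0.11 in MV, and 0.40, -0.48 and -0.06 in CON.

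In MV_PEEP against CON, all 53 subunits had a log2 fold change below 0, from -0.05 for COX6A1 to -1.88 for ATP5I, and the median was -0.83. Over the 67 genes the median was -0.75 and 64 lay below 0, beside a median of 0.06 over the 12981 genes tested. None passed an adjusted p of 0.05 in edgeR's quasi-likelihood test, as was so for 0% of all genes in this comparison (the smallest adjusted p of the 67 was 0.516). At an unadjusted p under 0.05, 11 of 67 were lower (16.4%), against 3.02% of all genes, and 1 was higher (1.49%), against 3.23%. DESeq2 called 1 of the 67 (1.49%) at an adjusted p under 0.05, ATP5I (adjusted p = 0.0336), and 0.755% of all genes. Groups did not overlap in FPKM for 7 of 67 lower genes (10.4%), against 2.58% of all genes, and for 1 higher gene, against 14.2%.

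The size of this difference moved with single libraries. Without MV_PEEP replicate 3 the median of the 67 genes was -0.40 with 6 lower genes at the same unadjusted threshold (8.96%, against 3.74% of all genes in that fit). Without CON replicate 1 the median was -0.42 with 4 lower genes (5.97%, against 1.96%). With both left out the median was -0.12, with 44 of 67 below 0 and 3 lower (4.48%, against 3.5%). The count was 37 without MV_PEEP replicate 1 (55.2%, against 3.81%) and 4 without MV_PEEP replicate 2 (5.97%, against 2.56%). It was 20 when CON replicate 2 was dropped (29.9%, against 3.05%) and 5 when CON replicate 3 was dropped (7.46%, against 2.0%).

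Separation of groups depends on the scale. On TMM-scaled CPM, 9 of 67 genes were lower without overlap in MV_PEEP against CON (790 of 12981 genes in all) and 4 in MV against CON (1002 in all). Of the genes described below as separate in FPKM, NDUFA6, COX7A1 and ETFDH overlapped on that scale in MV_PEEP against CON, and SDHAF1, SDHAF3, COX4I2 and CHCHD4 in MV against CON. The reverse held for NDUFB1, ATP5G3, SDHAF3 and GPD2 in MV_PEEP against CON and for ATP5G3 in MV against CON. These overlapped in FPKM and were lower without overlap on TMM-scaled CPM.

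**Figure D2:**
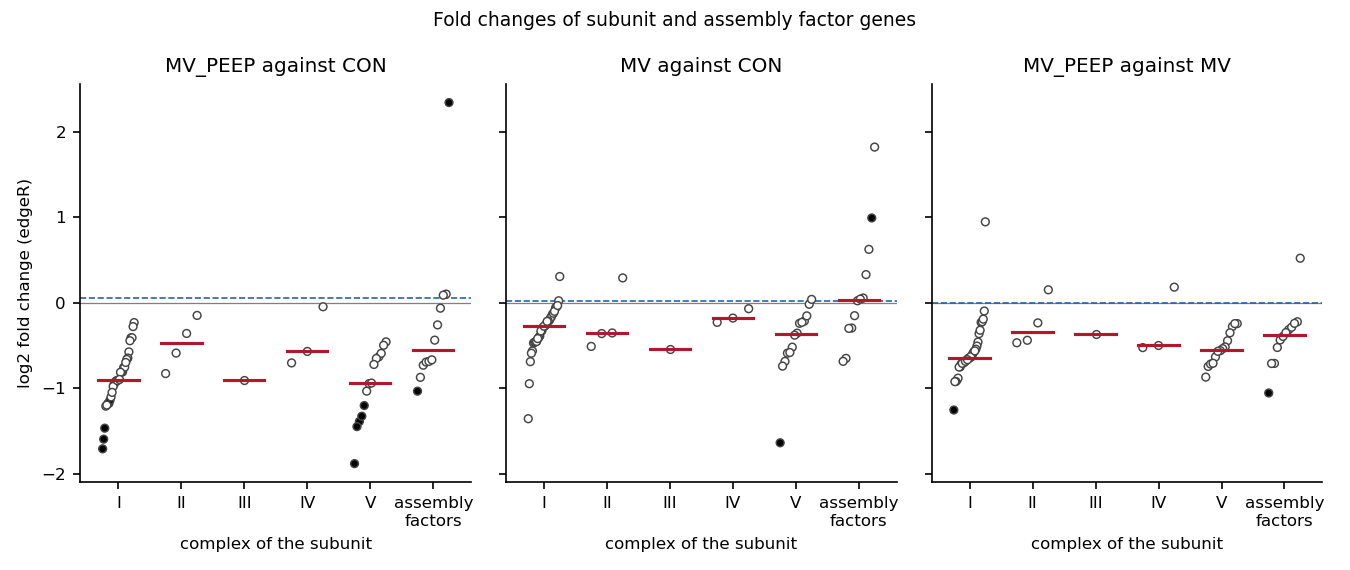
Log2 fold change (y axis) of each subunit by complex and of the assembly factors (x axis) in 3 comparisons; filled points have an unadjusted p under 0.05, red bars are medians and the dashed blue line is the median of 12981 genes. All 53 subunits lie below 0 in MV_PEEP against CON, and 49 of 53 in MV against CON.

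In MV against CON the lean was smaller. Of 53 subunits 49 lay below 0, with a median of -0.29, and the 67 genes had a median of -0.27 (56 below 0), beside 0.02 for all genes. At an unadjusted p under 0.05, 1 of 67 was lower (ATP5I), against 3.19% of all genes, and 1 higher (NDUFAF4), against 3.77%. None passed the adjusted threshold in edgeR (0% of all genes; smallest adjusted p of the 67 0.486) or in DESeq2, which called 1.19% of all genes. FPKM did not overlap for 6 lower genes (8.96%), against 4.91% of all genes, and for 1 higher gene, against 10.3%. The median turned to 0.06 without CON replicate 1, with 28 of 67 genes below 0, and the count of lower genes was 3 without CON replicate 2 (4.48%, against 2.21% of all genes in that fit), 3 without MV replicate 3 (against 3.08%), 2 without MV replicate 1 (against 3.5%) and 2 without MV_PEEP replicate 3 (against 4.37%). The MV_PEEP and MV comparisons share the CON libraries, so their values are given side by side and not as independent results.

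In MV_PEEP against MV, 50 of 53 subunits lay below 0 with a median of -0.56, and the 67 genes had a median of -0.52, beside 0.00 for all genes. Lower at an unadjusted p under 0.05 were 2 of 67 (NDUFB1 and NDUFAF4), against 1.26% of all genes, and none was higher, against 2.26%. None passed the adjusted threshold in edgeR (0% of all genes) or in DESeq2 (0.116% of all genes). The same 2 genes had groups without overlap, against 1.53% of all genes, and no gene had higher groups without overlap, against 4.86%. The median was -0.19 without MV_PEEP replicate 3 and -1.02 without MV_PEEP replicate 1, where 13 genes were lower (19.4%, against 2.97% of all genes). The count was 1 without MV_PEEP replicate 2 and without each of the MV libraries (1.49%, against 1.06% to 1.84% of all genes).

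Complex I passes electrons along a peripheral arm into a membrane arm that pumps protons. Its 31 subunits had a median log2 fold change of -0.90 in MV_PEEP against CON and -0.27 in MV against CON. At an unadjusted p under 0.05 in MV_PEEP against CON, 5 of 31 were lower, against 3.02% of all genes: NDUFA3, NDUFB1, NDUFA11, NDUFAB1 and NDUFA2. The last of these lies outside the rule for named genes and was named after its values were seen.

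NDUFA3, a small subunit of the membrane arm (gene ID 100356374, OryCun2.0 chromosome 12, 98666137 to 98666491, minus strand), had 560, 409 and 418 FPKM in MV_PEEP, 1028, 390 and 523 in MV, and 1308, 741 and 1266 in CON. All MV_PEEP libraries lay below all CON libraries, and the MV group reached into both ranges. Its log2 fold change in MV_PEEP against CON was -1.60 (SE 0.49, edgeR adjusted p = 0.654), and its p stayed under 0.05 in each of the 9 fits that left out 1 library. In MV against CON it was -0.95 (SE 0.48, edgeR adjusted p = 0.757).

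NDUFB1, another subunit of the membrane arm (gene ID 103348994, OryCun2.0 chromosome 1, 91621906 to 91622221, plus strand), had 44.1, 62.9 and 81.2 FPKM in MV_PEEP, 138, 122 and 111 in MV, and 97.0, 66 and 297 in CON. All MV_PEEP libraries were below all MV libraries (log2 fold change -1.26, SE 0.53, edgeR adjusted p = 0.985), but not below all CON libraries. That p stayed under 0.05 in 3 of 9 fits without 1 library. CON replicate 3 was far above the other CON libraries, and without it the log2 fold change of MV_PEEP against CON was -0.77 in place of -1.71. Another row of the table with the same description had 97.8, 109 and 93.9 FPKM in MV_PEEP, 367, 73.1 and 123 in MV, and 318, 180 and 469 in CON. In that row MV_PEEP lay below CON without overlap in FPKM (log2 fold change -2.04, unadjusted p under 0.05 in edgeR). Its log2 fold change in MV_PEEP against MV was -1.06, with overlapping groups. The RefSeq gene table calls the first row LOC103348994 and gives the symbol NDUFB1 to a scarce row. That row had 4.24, 3.53 and 4.24 FPKM in MV_PEEP, 4.79, 3.25 and 2.04 in MV, and 3.84, 4.40 and 3.16 in CON. Its log2 fold changes were -0.24 in MV_PEEP against CON and 0.08 in MV_PEEP against MV, with overlapping groups. Which row a read was given to depends on the authors' counting.

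NDUFAB1, the mitochondrial acyl carrier protein that is also a complex I subunit (OryCun2.0 chromosome 6, 14327553 to 14338297, minus strand), had 267, 194 and 179 FPKM in MV_PEEP, 392, 249 and 309 in MV, and 500, 319 and 315 in CON. MV_PEEP lay below CON without overlap, and the log2 fold change was -1.14 (SE 0.44, edgeR adjusted p = 0.723). It was -0.75 without CON replicate 1. A row with the same description, at 63.6 to 221 FPKM in MV_PEEP and 113 to 206 in CON, had a log2 fold change of -0.61 with overlapping groups.

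NDUFA11, of the membrane arm, had 180, 131 and 126 FPKM in MV_PEEP and 368, 170 and 414 in CON. CON replicate 2 fell among the MV_PEEP values, so the groups overlapped (log2 fold change -1.47, SE 0.51, edgeR adjusted p = 0.69). NDUFA2, of the peripheral arm, likewise had 327, 284 and 229 FPKM in MV_PEEP and 589, 321 and 598 in CON. Again CON replicate 2 was the low one.

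Of the most abundant complex I genes, NDUFA6, an accessory subunit that binds the acyl carrier protein, had 1118, 741 and 426 FPKM in MV_PEEP, 1595, 942 and 1376 in MV, and 1904, 1124 and 1342 in CON. MV_PEEP lay below CON by a narrow gap (log2 fold change -1.21, edgeR adjusted p = 0.8). NDUFB9, of the membrane arm, had 1012, 747 and 456 FPKM in MV_PEEP, 1272, 1066 and 883 in MV, and 1095, 717 and 1039 in CON. Its groups overlapped throughout, with a log2 fold change of -0.65 in MV_PEEP against CON and 0.02 in MV against CON (SE 0.48 each). NDUFS6, of the peripheral arm, was among the 3 lowest in MV_PEEP against MV, at -0.92 (SE 0.60) with overlapping groups. The row named NDUFA13 had 0.543 to 2.38 FPKM over the 9 libraries and is described in the table as another protein, so its identity is uncertain. It had the lowest log2 fold change of complex I in MV against CON (-1.36, SE 0.86).

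Assembly factors help to build a complex without being part of it. The 12 of complexes I and II had a median log2 fold change of -0.55 in MV_PEEP against CON (9 below 0), 0.03 in MV against CON (5 below 0) and -0.37 in MV_PEEP against MV (11 below 0). NDUFAF4 (gene ID 100356197, OryCun2.0 chromosome 12, 84198732 to 84223925, minus strand) had 6.41, 4.79 and 5.97 FPKM in MV_PEEP, 9.75, 12.8 and 8.38 in MV, and 4.70, 5.98 and 3.87 in CON. The MV group was above both other groups without overlap. The log2 fold change of MV against CON was 0.99 (SE 0.33, edgeR adjusted p = 0.567) and that of MV_PEEP against MV was -1.06 (SE 0.33, edgeR adjusted p = 0.985). The second of these kept a p under 0.05 in each of 9 fits without 1 library, and the first in 7 of 9. The first missed 0.05 without CON replicate 3 and without MV replicate 2.

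NDUFAF2, an assembly factor related in sequence to NDUFA12 (OryCun2.0 chromosome 11, 76998344 to 77189679, plus strand), had 11.2, 5.28 and 6.50 FPKM in MV_PEEP, 9.52, 5.73 and 0.373 in MV, and 0.735, 1.45 and 1.58 in CON. All MV_PEEP libraries were above all CON libraries, while MV replicate 3 was below them. The log2 fold change was 2.34 in MV_PEEP against CON (SE 0.90, edgeR adjusted p = 0.723) and 1.82 in MV against CON (SE 0.89, edgeR adjusted p = 0.747). It was the highest of the 67 in both comparisons. The first missed an unadjusted p of 0.05 in 3 of 9 fits, without MV_PEEP replicate 1 (log2 fold change 1.75), without CON replicate 1 and without CON replicate 2. NDUFAF7, an arginine methyltransferase needed for complex I assembly, was next among the 67 in MV_PEEP against CON at 0.10 (SE 0.55), with overlapping groups.

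**Figure D3:**
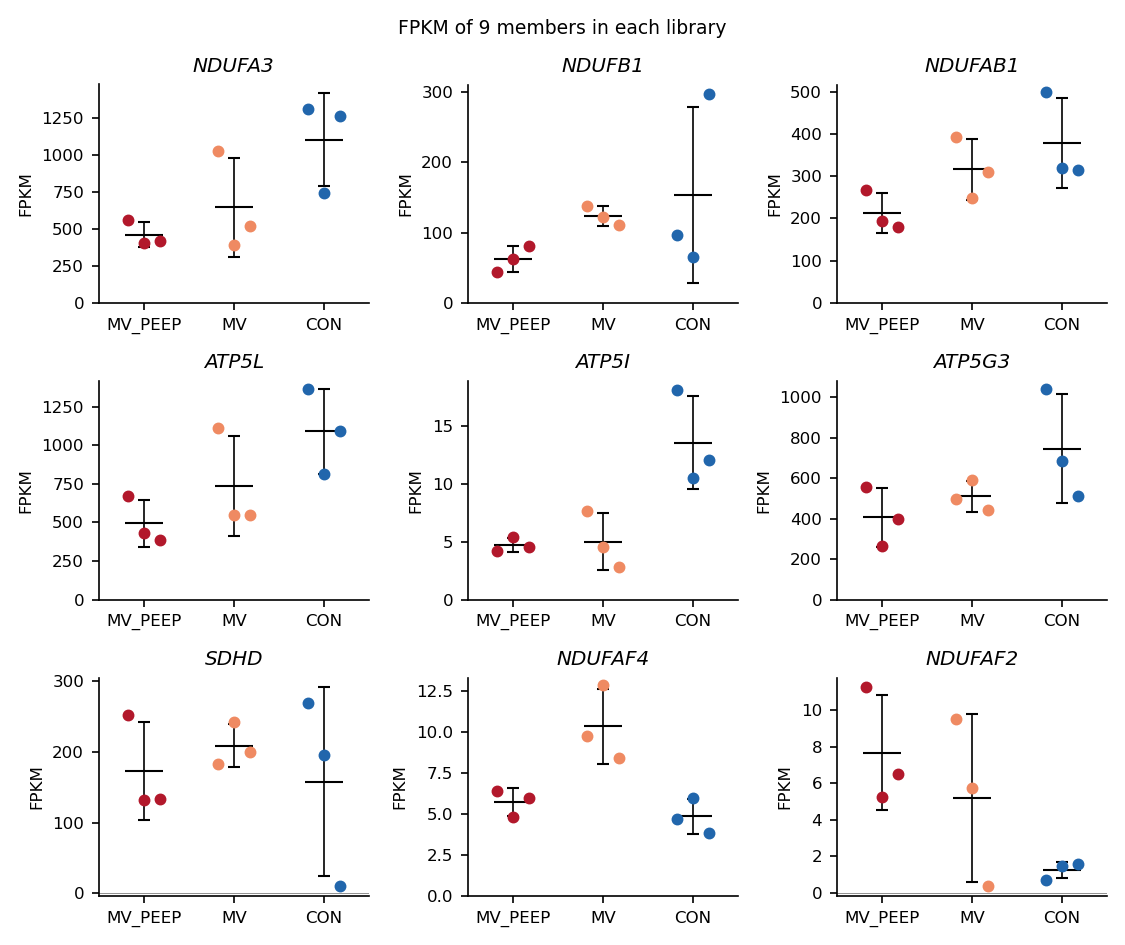
FPKM (y axis) of 9 genes in each library of MV_PEEP, MV and CON (x axis); points are libraries, black bars the mean and its SD (n = 3). NDUFA3, NDUFAB1, ATP5L and ATP5I lie lower in MV_PEEP than in CON without overlap, NDUFAF4 is highest in MV, and SDHD has 1 low CON library at 10.3.

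Complex II consists of SDHA, SDHB, SDHC and SDHD, and all 4 were in the list. Their median log2 fold change was -0.47 in MV_PEEP against CON and -0.36 in MV against CON, and none reached an unadjusted p of 0.05. SDHA, the flavoprotein that oxidizes succinate, had 499, 346 and 320 FPKM in MV_PEEP, 353, 327 and 257 in MV, and 508, 509 and 219 in CON. CON replicate 3 was the lowest library of all, and the groups overlapped. SDHB, the iron-sulfur subunit, had 502, 365 and 272 FPKM in MV_PEEP, 507, 568 and 356 in MV, and 751, 528 and 376 in CON, again with overlap. SDHC, a membrane anchor, had 345, 177 and 211 FPKM in MV_PEEP, 220, 198 and 320 in MV, and 419, 246 and 221 in CON.

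SDHD, the other membrane anchor, had 253, 132 and 134 FPKM in MV_PEEP, 184, 243 and 200 in MV, and 269, 195 and 10.3 in CON. Its log2 fold change turned with the low CON replicate 3: it was 0.29 in MV against CON with all libraries, and -0.28 without that library. Other rows described as SDHD were low in the same library, with 11.5 and 23.8 FPKM in the most abundant ones, against 43.8 to 50.6 and 66.1 to 95.8 in the other CON libraries. These rows were also low in MV_PEEP replicate 3 (21.3 and 26.8) and MV replicate 1 (22.4 and 24.0). The SDHD row itself had 134 and 184 FPKM in those libraries.

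The assembly factors of complex II are chaperones of its flavin and iron-sulfur subunits. SDHAF3, which helps to mature SDHB, had 20.7, 18 and 27.4 FPKM in MV_PEEP, 19.7, 22.9 and 26.3 in MV, and 33.1, 26.7 and 44.3 in CON. It was below CON in all MV libraries and in 2 of 3 MV_PEEP libraries (log2 fold change -1.03 in MV_PEEP against CON, SE 0.36, edgeR adjusted p = 0.70; -0.69 in MV against CON, edgeR adjusted p = 0.769). SDHAF1, another factor for SDHB, had 3.00, 5.98 and 6.50 FPKM in MV_PEEP, 4.73, 3.84 and 5.85 in MV, and 6.63, 6.66 and 8.28 in CON. Both ventilated groups lay below CON without overlap, with log2 fold changes of -0.87 (edgeR adjusted p = 0.821) and -0.65 (edgeR adjusted p = 0.813). SDHAF2, which attaches flavin to SDHA, had 165, 92.8 and 80.6 FPKM in MV_PEEP, 93.5, 120 and 137 in MV, and 100, 86.1 and 78.2 in CON, with overlap in each comparison. SDHAF4 had 14.8, 9.08 and 7.67 FPKM in MV_PEEP, 15.5, 13.2 and 16.8 in MV, and 14.5, 9.84 and 16.5 in CON.

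Complex III was represented by UQCRQ, a small accessory subunit, with 1908, 1322 and 631 FPKM in MV_PEEP, 1763, 1177 and 1587 in MV, and 2612, 1384 and 1994 in CON. Its groups overlapped (log2 fold change -0.91 in MV_PEEP against CON, SE 0.59, edgeR adjusted p = 0.921). The 6 further complex III genes found by RefSeq symbol had medians of -0.71 in MV_PEEP against CON and -0.29 in MV against CON, with UQCRB the only 1 at an unadjusted p under 0.05 (MV_PEEP against CON -1.25, edgeR adjusted p = 0.798).

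In complex IV, COX4I1, the most abundant gene of the list, had 3984, 2884 and 1594 FPKM in MV_PEEP, 4871, 3199 and 3137 in MV, and 4997, 2858 and 3491 in CON. NDUFA4, once assigned to complex I and now to complex IV, had 3160, 1994 and 875 FPKM in MV_PEEP, 2959, 2138 and 2725 in MV, and 2974, 1507 and 2979 in CON. Both overlapped between all groups, with log2 fold changes in MV_PEEP against CON of -0.70 (SE 0.56) and -0.57 (SE 0.62). The ubiquitous isoform COX6A1 behaved otherwise: it had 37.2, 34.7 and 227 FPKM in MV_PEEP, 70.8, 53.2 and 67.1 in MV, and 56.3, 60.6 and 93.1 in CON. Its highest value lay in MV_PEEP replicate 3, the library in which most subunits were lowest and adipocyte markers highest. NDUFA4L2, a hypoxia-inducible paralog of NDUFA4 in other mammals, was also highest there, with 3.18, 3.64 and 19.3 FPKM in MV_PEEP, 1.41, 5.13 and 3.13 in MV, and 6.53, 8.52 and 6.98 in CON. The MV group lay below CON without overlap (log2 fold change -1.25, SE 0.65, edgeR adjusted p = 0.768).

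Striated muscle uses its own isoforms of some complex IV subunits. These were outside the name rule and found by RefSeq symbol or description. COX6A2, the muscle isoform of subunit 6A, had 1272, 989 and 879 FPKM in MV_PEEP, 2637, 1137 and 1011 in MV, and 4049, 2921 and 3132 in CON. In this row both ventilated groups lay below CON without overlap. The log2 fold change was -2.0 in MV_PEEP against CON (SE 0.49, edgeR adjusted p = 0.511) and -1.26 in MV against CON (SE 0.48, edgeR adjusted p = 0.617). DESeq2 gave it an adjusted p of 0.00458 in MV_PEEP against CON. A second row carries the same description, so the FPKM of both rows were added for the ratios below. In that sum MV overlapped CON, with 4628 FPKM in MV replicate 1 and 4510 in CON replicate 2. MV_PEEP, at 1526 to 2568, stayed below CON. COX7A1, the muscle isoform of subunit 7A, had 2393, 1983 and 794 FPKM in MV_PEEP, 4112, 1682 and 2044 in MV, and 4573, 2540 and 4465 in CON. It was below CON without overlap in MV_PEEP (log2 fold change -1.44, SE 0.62, edgeR adjusted p = 0.796) and with overlap in MV. COX4I2, an isoform of subunit 4 known from lung, was scarce, with 5.80, 7.23 and 5.75 FPKM in MV_PEEP, 5.08, 4.27 and 11.4 in MV, and 12.6, 12.2 and 16.4 in CON. Both ventilated groups were below CON without overlap (log2 fold changes -1.46, edgeR adjusted p = 0.712, and -1.01, edgeR adjusted p = 0.757).

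A ratio of 2 isoforms within a library needs no scaling between libraries. The log2 ratio of COX6A2 to COX6A1 was 6.11, 5.56 and 2.75 in MV_PEEP, 6.03, 5.50 and 4.91 in MV, and 7.10, 6.22 and 5.95 in CON. The mean differed by -1.62 in MV_PEEP against CON and by -0.94 in MV against CON, with overlap in both (exact 2-sided permutation p = 0.2 each, 0.72 after adjustment over the 18 comparisons of 6 pairs; the smallest p that 3 against 3 libraries allow is 0.1). The ratio of COX8B to COX8A was 5.18, 5.62 and 1.57 in MV_PEEP, 5.53, 3.91 and 5.38 in MV, and 6.14, 5.16 and 5.68 in CON. That of COX7A1 to COX7A2 was 3.07, 3.33 and 2.17 in MV_PEEP, 3.25, 2.99 and 2.32 in MV, and 3.29, 3.26 and 3.19 in CON. In each of these muscle pairs the lowest ratio of all 9 libraries was that of MV_PEEP replicate 3. COX4I2 to COX4I1, NDUFA4L2 to NDUFA4 and ATP5G1 to ATP5G3 overlapped in all comparisons as well, and no pair reached the smallest possible p. The pair COX6B2 and COX6B1 gave no ratio because no row named COX6B2 was found.

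**Figure D4:**
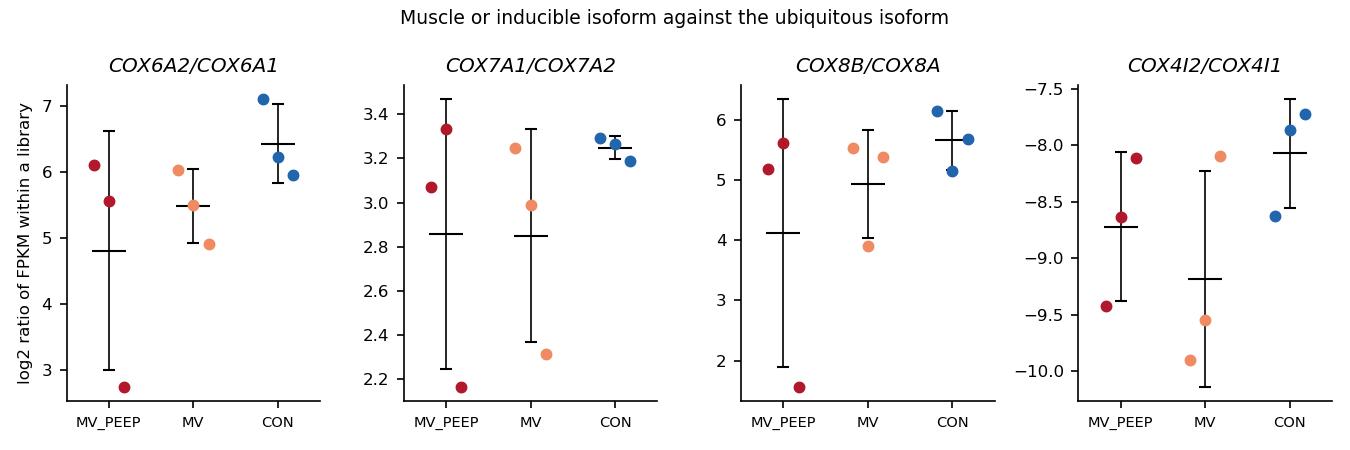
Log2 ratio of FPKM within a library (y axis) of the muscle or inducible isoform to the ubiquitous isoform, for 4 complex IV pairs in MV_PEEP, MV and CON (x axis); points are libraries and bars the mean with its SD (n = 3). MV_PEEP replicate 3 has the lowest ratio of the 3 muscle pairs, at 2.75, 2.17 and 1.57.

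ATP synthase has a catalytic F1 head, a turning central stalk and c-ring, a peripheral stalk that holds the head still, and small membrane subunits at which the enzyme dimerizes. The 14 subunits had a median log2 fold change of -0.94 in MV_PEEP against CON and -0.37 in MV against CON. At an unadjusted p under 0.05, 5 of 14 were lower in the first (ATP5I, ATP5L, ATP5G3, ATP5E and ATP5G1), against 3.02% of all genes. By part, the medians in MV_PEEP against CON were -1.45 for the 3 small membrane subunits, -1.20 for the 3 c-ring genes, -0.83 for the 4 of head and central stalk and -0.61 for the 4 of the peripheral stalk.

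ATP5I, which encodes the e subunit at the dimer interface, had 4.21, 5.39 and 4.56 FPKM in MV_PEEP, 7.67, 4.53 and 2.78 in MV, and 18.1, 10.5 and 12.1 in CON. Both ventilated groups were below CON without overlap. The log2 fold change was -1.88 in MV_PEEP against CON (SE 0.47, edgeR adjusted p = 0.516) and -1.64 in MV against CON (SE 0.46, edgeR adjusted p = 0.486), and both kept a p under 0.05 in all 9 fits that left out 1 library. The row held few reads for such a subunit. Another row of the same description had 1805, 1769 and 1017 FPKM in MV_PEEP, 4170, 1460 and 1738 in MV, and 4308, 1961 and 4981 in CON. In that row the log2 fold change was -1.61 in MV_PEEP against CON and -0.81 in MV against CON, with an unadjusted p under 0.05 in the first only, and MV overlapped CON.

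ATP5L, the g subunit beside it, had 669, 430 and 387 FPKM in MV_PEEP, 1112, 549 and 551 in MV, and 1366, 814 and 1093 in CON. MV_PEEP lay below CON without overlap (log2 fold change -1.45, SE 0.50, edgeR adjusted p = 0.687), and MV did not. Of the c-ring genes, which encode the same mature protein from separate loci, ATP5G3 (OryCun2.0 chromosome 7, 114823438 to 114826605, minus strand) had 558, 264 and 396 FPKM in MV_PEEP, 495, 593 and 443 in MV, and 1041, 685 and 513 in CON. ATP5G1 (OryCun2.0 chromosome 19, 38526415 to 38528938, minus strand) had 1337, 602 and 395 FPKM in MV_PEEP, 1455, 1219 and 996 in MV, and 2019, 1164 and 1729 in CON. In both, 1 MV_PEEP library reached into the CON range (log2 fold changes -1.20, edgeR adjusted p = 0.738, and -1.33, edgeR adjusted p = 0.798).

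ATP5E, the epsilon subunit of the central stalk, had 1695, 1431 and 1039 FPKM in MV_PEEP, 3789, 1080 and 1988 in MV, and 3527, 1612 and 3544 in CON. The range within MV was wider than the distance of either ventilated mean (1388 in MV_PEEP, 2286 in MV) from the CON mean of 2894. ATP5O, the subunit that joins the peripheral stalk to the head, was the most abundant of complex V, with 3366, 2103 and 1490 FPKM in MV_PEEP, 3486, 2840 and 2992 in MV, and 4012, 2255 and 3126 in CON, and its groups overlapped (log2 fold change in MV_PEEP against CON -0.72, SE 0.54).

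The size of the difference went with transcript length. The length was computed from count and FPKM, and the 17 subunits with the shortest transcripts (293 to 622 bases) had a median log2 fold change in MV_PEEP against CON of -0.98, against -0.59 for the 17 longest (843 to 2672 bases). Over the 53 subunits the correlation of log2 length with log2 fold change was r = 0.58 in MV_PEEP against CON and 0.19 in MV against CON, and over 12963 genes 0.08 and -0.03. All 11 genes lower at an unadjusted p under 0.05 were shorter than 1000 bases, as were 44 of all 67. By library, the median level of the 17 shortest minus that of the 17 longest subunits stood at -0.33, -0.12 and -0.30 in MV_PEEP, 0.61, -0.43 and -0.11 in MV, and -0.03, -0.32 and 0.75 in CON. Over all genes, the 4321 shortest had 75 to 1682 bases and the 4321 longest 3330 to 108752 bases. Shortest minus longest stood at 0.22, -0.34 and -0.36 in MV_PEEP, -0.16, -0.06 and 0.70 in MV, and 0.43, -0.29 and 0.03 in CON. The libraries highest for the subunits, CON replicate 3 and MV replicate 1, were not the highest over all genes. The length ranges differ between the subunits and all genes. Whether all genes differ by length as the subunits do, at like lengths, was not tested. The part of length in the differences between groups was not tested.

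**Figure D5:**
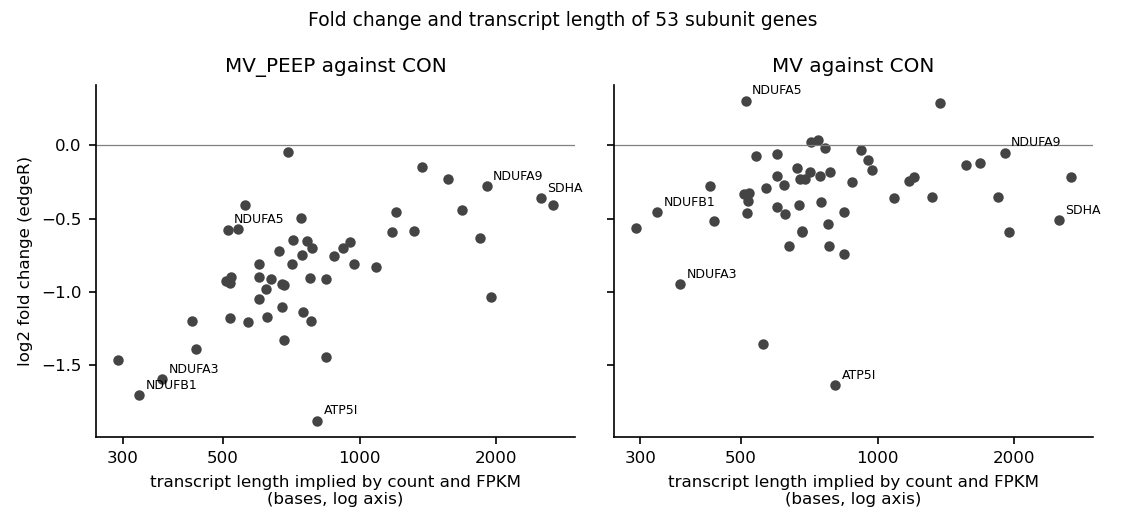
Log2 fold change (y axis) of 53 subunit genes against the transcript length implied by count and FPKM (x axis, bases, log axis) in MV_PEEP against CON and MV against CON. In MV_PEEP against CON ATP5I lies lowest and short transcripts such as NDUFB1 and NDUFA3 lie low, and the slope is weaker in MV against CON.

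The 23 chain genes found only by RefSeq symbol went the same way. Their median log2 fold change was -0.98 in MV_PEEP against CON (23 of 23 below 0) and -0.42 in MV against CON (21 of 23). At an unadjusted p under 0.05, 6 of 23 were lower in the first, against 3.02% of all genes, and 1 in the second, against 3.19%. Besides the isoforms above, NDUFV3, an accessory subunit of the NADH-binding module, had 88.9, 84.6 and 101 FPKM in MV_PEEP, 193, 118 and 85.4 in MV, and 262, 146 and 171 in CON. MV_PEEP lay below CON without overlap (log2 fold change -1.46, SE 0.39, edgeR adjusted p = 0.584).

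Other mitochondrial genes were read from lists. Among 6 further genes of electron transfer, CYCS, which encodes cytochrome c, had 198, 91.7 and 196 FPKM in MV_PEEP, 334, 295 and 422 in MV, and 753, 385 and 148 in CON. The CON libraries spread most, and the log2 fold change in MV_PEEP against CON was -1.79 (SE 0.63, edgeR adjusted p = 0.705), with overlap in FPKM. Against MV, the MV_PEEP libraries were lower without overlap, both in FPKM and on TMM-scaled CPM. ETFDH, which feeds electrons from fatty acid oxidation into ubiquinone, ran the other way, with 149, 87.7 and 73.2 FPKM in MV_PEEP, 110, 110 and 174 in MV, and 68.8, 50.9 and 45.5 in CON. Both ventilated groups lay above CON without overlap (log2 fold changes 0.63, edgeR adjusted p = 0.956, and 1.18, edgeR adjusted p = 0.705). GPD2, the glycerol-3-phosphate dehydrogenase of the inner membrane, had 4.45, 7.03 and 2.37 FPKM in MV_PEEP, 2.78, 4.64 and 4.16 in MV, and 6.97, 8.71 and 8.55 in CON. MV_PEEP overlapped CON and MV did not (MV against CON log2 fold change -1.13, edgeR adjusted p = 0.694).

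Of 39 assembly factors outside the name rule, 32 lay below 0 in MV_PEEP against CON (median -0.36) and 19 in MV against CON (median 0.00). At an unadjusted p under 0.05, 2 of 39 were lower and 0 higher in MV_PEEP against CON, against 3.02% and 3.23% of all genes. In MV against CON 0 were lower and 1 was higher, against 3.19% and 3.77%. COX14, an assembly factor of complex IV, had 28.7, 24.0 and 26.7 FPKM in MV_PEEP, 70.0, 23.0 and 62.9 in MV, and 75.2, 49.1 and 249 in CON. MV_PEEP lay below CON without overlap (log2 fold change -2.59, SE 0.69, edgeR adjusted p = 0.584). CHCHD4, which imports and folds proteins of the intermembrane space, resembled NDUFAF4, with 4.13, 2.74 and 6.35 FPKM in MV_PEEP, 12.4, 5.75 and 9.27 in MV, and 4.03, 3.28 and 5.09 in CON. MV lay above CON without overlap in FPKM (log2 fold change 1.02, SE 0.41, edgeR adjusted p = 0.641). MV_PEEP against MV was -1.34 (edgeR adjusted p = 0.985). Unlike in NDUFAF4, those 2 groups overlapped in FPKM, and they were separate only on TMM-scaled CPM.

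The 18 TCA cycle genes had medians of -0.47 in MV_PEEP against CON (18 of 18 below 0) and -0.24 in MV against CON (16 of 18), and the 13 genes of carriers and the outer membrane medians of -0.37 and 0.10. The 15 regulators of mitochondrial biogenesis had medians of 0.00 and 0.23. In these 3 lists no gene reached an unadjusted p of 0.05 in any of the 3 comparisons. PPARGC1A, the coactivator that drives mitochondrial gene expression, had 9.63, 4.70 and 2.0 FPKM in MV_PEEP, 28.3, 7.68 and 6.61 in MV, and 3.83, 10.7 and 4.78 in CON, where the high MV replicate 1 set the mean of its group. The 16 skeletal muscle markers had a median log2 fold change of -0.85 in MV_PEEP against CON and -0.65 in MV against CON, beside -0.83 and -0.29 for the subunits. At an unadjusted p under 0.05, 2 of the 16 were lower in the first, against 3.02% of all genes, and 1 in the second, against 3.19%. The difference between lists was not tested.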

How the data were processed

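Diaphragm poly(A) RNA was sequenced as stranded pairs, and the deposited table gives a count and an FPKM per gene and library. The authors used cutadapt 1.9 for trimming, HISAT2 2.0.4 for alignment to OryCun2.0, and StringTie 1.3.4d. The deposited counts are whole numbers, and the counting program is not given in the sources used here. The deposited FPKM values are scaled by the authors to transcript length and library size. Of counts from 1 to 12, 54.3% were 4, 8 or 12, so counts divided by 4 were one alternative. The members and lists were chosen with earlier results of these data known.

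Genes entered the test when FPKM averaged 0.5 or more over the libraries, which left 12981. The test was the quasi-likelihood one of edgeR 4.0.16, run under R 4.3.3 (TMM factors, 1 mean per group over 9 libraries, glmQLFit in its legacy form, glmQLFTest, 6 residual degrees of freedom), and p-values were adjusted by Benjamini-Hochberg over all of them. The common biological coefficient of variation was 0.552. The fit was tested on simulated data. Alternatives were DESeq2 1.42.0, limma 3.58.1 on log2(FPKM + 1) and log2(FPKM + 0.1), other scalings and filters, a replicate block and leaving out each library. Leaving out 2 libraries together was added after the data were seen. RefSeq symbols matched 64 of 67 members, and their table was used for names only. With no sequence table at hand, the planned motif search in promoters was not run and no sequences are printed.

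Named members were those with the smallest p (up to 8 per direction and comparison at an unadjusted p under 0.05), the 2 most abundant of each complex, the isoform pairs, the 3 highest and 3 lowest log2 fold changes, all of complex II, and the smallest p per complex. From each other list, genes were named among the 2 with the smallest p per comparison, and those of the lists without a gene at an unadjusted p under 0.05 are mostly left out. A result on part of complex I is not reported here.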

Additional observations from a re-analysis of the deposited data

How the results depend on the processing

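No member passed the adjusted threshold in edgeR. The median log2 fold change of the members in MV against CON was -0.27, between -0.54 and 0.0571 with 1 library left out (0.0571 without CON replicate 1), and 0.0743 without both MV_PEEP replicate 3 and CON replicate 1, a setting chosen after seeing the data. In MV_PEEP against CON it was -0.75, between -1.25 and -0.40 with 1 library left out and -0.12 without both, and in MV_PEEP against MV it lay between -1.02 and -0.19. At an unadjusted p under 0.05, the 11 lower members in MV_PEEP against CON became 18 with DESeq2 (26.9%, against 3.67% of all genes). They became 18 of 65 at an FPKM minimum of 5 (27.7%, against 3.72%) and 3 without both libraries (4.48%, against 3.5%). With 1 library left out they ranged from 4 to 37, with the shares at both ends given above. The 1 higher member, NDUFAF2, has a mean of 4.71 FPKM and so was not tested at an FPKM minimum of 5. That left 0 higher members there (286 of 6908 genes in all). The count of higher members was 0 with the replicate block (290 of 12981). It became 0 without both libraries (314 of 12981), and was 0 to 1 with 1 left out. In MV against CON the 1 higher member became 2 with DESeq2, against 646 of 12981 genes (0 to 2 with 1 left out). The 1 lower member became 3 of 65 at an FPKM minimum of 5 (4.62%, against 3.5% of all genes). It became 2 with only the 6 libraries compared (2.99%, against 4.28%) and 2 with the replicate block (2.99%, against 2.72%). The lower count was 1 to 3 with 1 left out. In MV_PEEP against MV the 2 lower members became 1 with library size alone (1.49%, against 0.601% of all genes). They became 1 of 65 at an FPKM minimum of 5 (1.54%, against 1.16%). With limma at either pseudocount 1 was left (1.49%, against 0.632% and 0.647%), as was so without both libraries (1.49%, against 1.23%). The count ran from 1 to 13 with 1 left out. The causes were not tested. Library size alone moved the median of all genes to 0.42 in MV_PEEP against CON, and the members stood at -0.88 relative to it.

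The replicate numbers did not pair the libraries: the correlations of same-numbered libraries ran from -0.28 to 0.36, and a library was closest to one of its own number in 2 of 9 cases. With the replicate block, 13 members were lower in MV_PEEP against CON (19.4%, against 2.63% of all genes) and the median was -0.79. Of single members under all alternatives, 64 values that had an unadjusted p under 0.05 lost it, and no such value changed direction; members without it could, as SDHD did in MV against CON without CON replicate 3 (-0.28, against 0.29 with all libraries).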
